A study of Mus musculus with 6 samples.

Results

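The genes described here are the coactivators Yap1 and Wwtr1, which encodes TAZ, the DNA-binding factors Tead1, Tead2, Tead3 and Tead4, and 4 genes widely used as readouts of their activity, Ctgf, Cyr61, Ankrd1 and Amotl2. They were picked by symbol and role, with earlier results of these data known, and make up 10 of the 23473 RefSeq gene rows in the table. Ctgf and Cyr61 are now called Ccn2 and Ccn1. All 10 were measured by bulk RNA sequencing of tumor endothelial cells (TECs) from 3 control (Ctrl) and 3 NICeCA mice. The tumors were Lewis lung carcinomas (LLC), a mouse line that is grown by transplantation.

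Mice of both groups were male C57BL/6 animals with a labelled age of 8 weeks, and carried an LLC tumor under the skin. Ctrl mice have the genotype wild type in the labels. NICeCA mice carry Cdh5 cre ERT2 together with Rosa26 flox-stop-flox Notch1 ICD, so tamoxifen removes a stop cassette in cells that express Cdh5, and those cells then make the intracellular domain of Notch1 without a ligand. The sources used here do not state, for these 6 libraries, whether Ctrl mice received tamoxifen or carried the Cre, nor the share of endothelial cells that recombined. The cells were released with collagenase and captured with CD31 beads, which bind a surface protein of endothelial cells that platelets and some leukocytes also carry. According to the labels the tumors were not all collected on the same day, and the day of each library is not given there. The paper's methods instead give a single day after inoculation for the tumors used in bulk sequencing.

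YAP and TAZ have no DNA-binding domain of their own. In the nucleus they bind TEAD proteins and raise transcription of genes for matrix, adhesion and growth. The Hippo kinases MST1/2 activate LATS1/2, which phosphorylate YAP and TAZ and so hold them in the cytoplasm. Stretch, cell spreading and loss of cell contacts act the other way. In endothelium YAP and TAZ are known for their part in sprouting and in the growth of new vessels. Their activity is set mainly by phosphorylation and location, which transcript levels do not measure.

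The promoters of the coactivator Yap1 and of 3 of the target genes are shown because they give the letters to which TEAD proteins bind next to genes whose levels are compared here. Each line is the 250 bases upstream of the RefSeq start site, 5′ to 3′ on the strand of the gene, from RefSeq on GRCm38.p6. Capitals mark the core TEAD motif, GGAATG or its reverse complement CATTCC. The Yap1 sequence is chr9:8004597-8004846 (minus strand), Cyr61 is chr3:145649986-145650235 (minus strand), Ankrd1 is chr19:36119845-36120094 (minus strand) and Amotl2 is chr9:102717554-102717803 (plus strand).
Yap1: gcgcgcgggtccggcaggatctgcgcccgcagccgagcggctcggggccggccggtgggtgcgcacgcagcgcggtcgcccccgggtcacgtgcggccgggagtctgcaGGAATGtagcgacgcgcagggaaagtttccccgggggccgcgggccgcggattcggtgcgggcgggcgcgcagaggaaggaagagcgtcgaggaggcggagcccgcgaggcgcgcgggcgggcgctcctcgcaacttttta
Cyr61: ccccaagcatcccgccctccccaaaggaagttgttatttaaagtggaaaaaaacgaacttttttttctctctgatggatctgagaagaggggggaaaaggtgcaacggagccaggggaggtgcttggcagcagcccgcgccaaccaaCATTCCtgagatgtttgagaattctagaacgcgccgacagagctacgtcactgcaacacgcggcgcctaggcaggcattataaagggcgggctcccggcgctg
Ankrd1: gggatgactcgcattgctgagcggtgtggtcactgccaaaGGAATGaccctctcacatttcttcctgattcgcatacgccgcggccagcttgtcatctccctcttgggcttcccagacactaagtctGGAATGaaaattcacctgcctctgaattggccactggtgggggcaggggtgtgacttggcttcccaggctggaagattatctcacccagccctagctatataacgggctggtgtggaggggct
Amotl2: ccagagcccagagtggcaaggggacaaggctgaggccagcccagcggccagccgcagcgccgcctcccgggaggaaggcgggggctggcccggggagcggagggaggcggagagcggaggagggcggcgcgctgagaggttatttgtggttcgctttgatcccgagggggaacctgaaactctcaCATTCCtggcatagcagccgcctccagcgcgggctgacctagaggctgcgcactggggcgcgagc

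Counted from the start site, the motif began at -141 in Yap1, at -103 in Cyr61 and at -65 in Amotl2, while Ankrd1 held 2 copies, the farther one at -210. Promoter entries were matched for 7 of the 10 genes, all but Tead1, Tead4 and Ctgf. Searched on both strands, the TEAD motif lay in 8 of the 10 entries of these genes, beside 12.6% of all 32851 promoter entries of the same length. Tead3 has 3 and Wwtr1 has 2 entries, which overlap in part, and counted by gene the motif lay in at least one entry of Yap1, Wwtr1, Tead3, Cyr61, Ankrd1 and Amotl2. The letters GTGGGAA or TTCCCAC, to which the Notch partner RBPJ binds, lay in 1 of the 10 entries, one of Tead3, and in 5.40% of all entries. Letters of the 2 motifs can overlap. A match is a stretch of letters and not a measured binding site, and its absence says only that the letters are not in this window.

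The libraries held between 27793301 and 30769916 reads on RefSeq rows. The deposited unit is RPKM, in which reads are scaled to gene length and to library total, so levels can be compared between genes. Genes averaging 1 RPKM or more over the 6 libraries were tested on log2(RPKM + 1) with limma, and a gene was called at a Benjamini-Hochberg adjusted p under 0.05. Of 12320 genes tested, 1671 were called, which is 13.6%, with 5.88% of all tested genes called higher and 7.68% called lower in NICeCA. The share of higher calls was 43.4%, and 58.6% after trimmed mean scaling, 57.8% with quantile normalization or 74.1% with the trend on gene length removed. The median log2 fold change of all tested genes was -0.05. The transgene check rests on Notch target genes: Hey1 rose from 3.67 to 8.87 RPKM (limma adjusted p = 0.041), Nrarp had means of 10.1 and 20.5 RPKM (limma adjusted p = 0.052), Hes1 9.88 and 8.54 RPKM (limma adjusted p = 0.56), and Notch1 itself 12.1 and 12.8 RPKM (limma adjusted p = 0.71). The endothelial markers given next also stood higher in NICeCA (median log2 fold change 0.64), and their part in this check was not tested.

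Cell type markers varied between libraries and between groups. The 12 endothelial markers were all detected, with a summed level of 226 to 586 RPKM in Ctrl and 486 to 634 RPKM in NICeCA. All 12 stood higher in NICeCA, by log2 fold changes between 0.22 and 1.25 (median 0.64, beside -0.05 for all tested genes). Libraries of the 2 groups did not overlap in 1 of the 12, beside 40.9% of all tested genes. By limma 0 of the 12 were called, beside 13.6% (3 had an unadjusted p under 0.05, beside 35.5%). Their mean on the log2 scale was lowest in Ctrl replicate 2 (3.94) and Ctrl replicate 3 (4.24), whereas Ctrl replicate 1 (5.21) stood among the NICeCA libraries (4.85 to 5.30). The 10 fibroblast markers summed to 408 to 687 RPKM in Ctrl and 195 to 386 RPKM in NICeCA, a sum made up mostly of Col3a1 (means 341 and 160 RPKM). Of 9 tested, 6 had a lower and 3 a higher level, with 4 called lower and 1, Postn, called higher. The fibroblast means on the log2 scale overlapped between groups (3.75 to 4.49 in Ctrl, 3.44 to 4.20 in NICeCA). Mural cell markers summed to 37.4 to 55.4 RPKM in Ctrl and 73.3 to 144 RPKM in NICeCA (2 of 8 tested called, both higher), and neutrophil markers to 117 to 269 and 594 to 1641 RPKM (6 of 7 tested called, all higher). The platelet list summed to 106 to 176 RPKM in Ctrl and 896 to 1130 RPKM in NICeCA, a difference that lay almost wholly in 1 of its 6 genes, Pf4 (means 130 and 1017 RPKM, called higher), while Itga2b (1.46 and 1.93 RPKM) and Gp1bb (1.35 and 0.930 RPKM) were not called and 3 averaged under 1 RPKM over all libraries. Macrophage markers summed to 6274 to 9214 RPKM in Ctrl and 4189 to 7859 RPKM in NICeCA, a sum made up mostly of Lyz2 and the C1q genes, and their members went both ways: of 7 tested, 5 had a lower and 2 a higher level, and the 1 called, Cd68, was higher (143 and 242 RPKM), as was the level of Mrc1 (84.4 and 203 RPKM, not called). T and NK cell markers summed to 45.4 to 70.0 and 43.1 to 61.0 RPKM, and epithelial markers, for carcinoma cells, to 7.13 to 13.1 and 6.73 to 8.92 RPKM, with Krt18 called lower and 6 of 8 under 1 RPKM. No marker of the 8 lists was at 0 in every library. In bulk samples such as these, fewer cells of a type and less RNA per cell cannot be told apart, and the part of these markers in the results below was not tested except where a value is given.

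Of the 10 genes, 8 had a lower and 2 a higher level in NICeCA, and 2 passed the test, Yap1 and Tead1, both lower. Among all tested genes 7.68% were called lower. In 4 genes (Yap1, Tead1, Tead2 and Tead3) every NICeCA library lay below every Ctrl library, as in 24.4% of all tested genes, and in 0 every NICeCA library lay above, as in 16.5%. An unadjusted p under 0.05 was reached by 6 of the 10, and by 35.5% of all tested genes. The median of the 10 log2 fold changes was -0.56. Both coactivators and the 4 TEAD factors had lower levels in NICeCA, while the target genes ran from a positive to a negative difference.

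**Figure D1:**
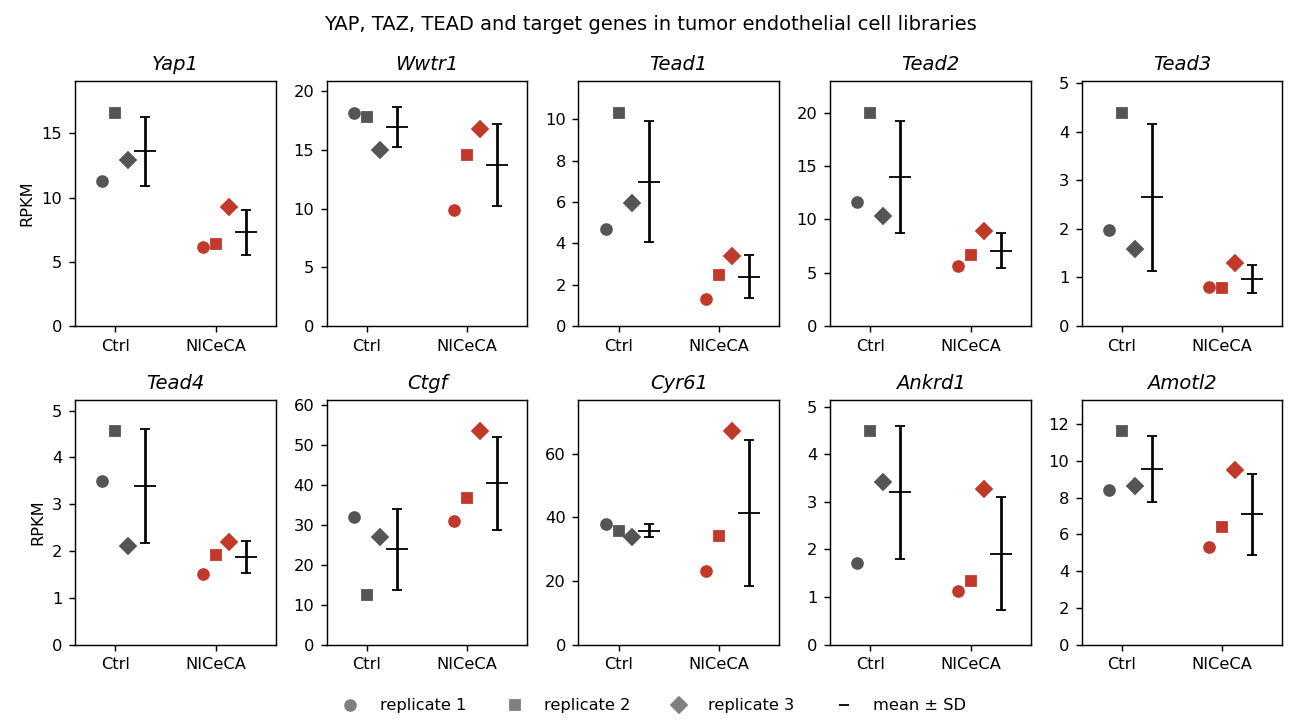
Levels in RPKM (y axis, linear, from 0) of the 10 genes in the Ctrl (gray) and NICeCA (red) libraries, with one symbol shape per replicate number and the mean ± SD of 3 libraries beside the points. Yap1 and Tead1 to Tead3 show NICeCA points below every Ctrl point, and Ctrl replicate 2 is the highest point in 7 of the 10 panels.

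Yap1, the gene for the coactivator YAP, lies on the minus strand of chromosome 9 (chr9:7932001-8004596, GRCm38). Its level was 11.3, 16.6 and 12.9 RPKM in Ctrl replicates 1, 2 and 3, and 6.18, 6.39 and 9.29 RPKM in NICeCA replicates 1, 2 and 3. The lowest Ctrl library stood above the highest NICeCA library, and NICeCA replicate 3 came closest to the Ctrl group. The mean fell from 13.6 ± 2.70 to 7.29 ± 1.74 RPKM (SD, n = 3 each), a log2 fold change of -0.82 (SE 0.19, 95% interval -1.26 to -0.38), with an adjusted p of 0.037 by limma. The exact permutation test gave 0.1, the smallest two-sided p that 3 libraries against 3 allow.

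Wwtr1 encodes TAZ, the close relative of YAP, on the minus strand of chromosome 3 (chr3:57455644-57575910). It stood at 18.2, 17.8 and 15.0 RPKM in the Ctrl replicates, and at 9.88, 14.5 and 16.8 RPKM in the NICeCA replicates. The groups overlapped, since NICeCA replicate 3 lay above Ctrl replicate 3. The means were 17.0 ± 1.71 and 13.7 ± 3.51 RPKM, and the log2 fold change of -0.31 had a 95% interval from -0.76 to 0.13 (limma adjusted p = 0.27).

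Wwtr1 was the more abundant coactivator transcript in every library. The ratio of Yap1 to Wwtr1 was 0.624, 0.932 and 0.859 in Ctrl, and 0.625, 0.440 and 0.554 in NICeCA. Ctrl replicate 1 and NICeCA replicate 1 had nearly the same ratio, so the ratios do not separate the groups. The sum of both transcripts did, with 29.5, 34.4 and 27.9 RPKM in Ctrl against 16.1, 20.9 and 26.0 RPKM in NICeCA. These ratios and sums are descriptions with no test.

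Tead1 encodes one of the 4 TEAD factors, which share a DNA-binding domain and the same core motif, and covers chr7:112679320-112906805 on the plus strand. Its level was 4.70, 10.3 and 5.97 RPKM in Ctrl, and 1.30, 2.46 and 3.37 RPKM in NICeCA. All NICeCA libraries lay below all Ctrl libraries, and NICeCA replicate 1 was the lowest of all. The mean fell from 6.99 ± 2.94 to 2.38 ± 1.04 RPKM, a log2 fold change of -1.23 (SE 0.30, 95% interval -1.93 to -0.53) (limma adjusted p = 0.041).

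Tead2 (chr7:45215753-45233619, plus strand) stood at 11.6, 19.98 and 10.3 RPKM in the Ctrl libraries, and at 5.64, 6.68 and 8.90 RPKM in the NICeCA libraries. The groups did not overlap, yet the adjusted p of 0.057 by limma missed the threshold (log2 fold change -0.86, 95% interval -1.44 to -0.28). Tead3 (chr17:28331673-28350805, minus strand) had 1.97, 4.38 and 1.59 RPKM in Ctrl, and 0.812, 0.783 and 1.30 RPKM in NICeCA. It too had groups that did not overlap, with a log2 fold change of -0.83, a 95% interval from -1.46 to -0.19 and a limma adjusted p of 0.077. Its NICeCA mean of 0.964 RPKM was under the minimum of the test, which it passed through the Ctrl level of 2.65 RPKM.

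Tead4 (chr6:128227143-128300813, minus strand) stood at 3.50, 4.56 and 2.11 RPKM in Ctrl, and at 1.51, 1.91 and 2.20 RPKM in NICeCA. Here Ctrl replicate 3 lay just below NICeCA replicate 3, so the groups overlapped. The log2 fold change was -0.58, with a 95% interval from -1.09 to -0.07 and a limma adjusted p of 0.11. Read numbers behind the TEAD genes ran from 83 for Tead3 in its shallowest library to 4092 for Tead1.

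Tead2 was the most abundant TEAD transcript in every library, with 53.4, 50.9 and 51.7% of the summed TEAD level in Ctrl and 60.9, 56.5 and 56.4% in NICeCA. Every NICeCA share lay above every Ctrl share. Tead1 took 21.5, 26.3 and 29.8% in Ctrl, and 14.0, 20.8 and 21.4% in NICeCA, which is lower in each NICeCA library than in each Ctrl library. The sum of the 4 factors was 21.8, 39.2 and 20.01 RPKM in Ctrl and 9.26, 11.8 and 15.8 RPKM in NICeCA. Ctrl replicate 2 stood far above the other libraries in that sum. Neither the shares nor the sums were tested, since they join genes already described.

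Both calls were lost when certain single libraries were left out. Without Ctrl replicate 2 the adjusted p by limma was 0.082 for Yap1 and 0.085 for Tead1, without Ctrl replicate 3 it was 0.052 and 0.058, without NICeCA replicate 1 it was 0.13 and 0.14, and without NICeCA replicate 2 it was 0.15 and 0.14. In the same order, the 1671 calls over all tested genes became 379, 1655, 104 and 18. With any 1 library left out, the log2 fold change lay between -0.99 and -0.68 for Yap1. For Tead1 it lay between -1.44 and -0.95. Tead2 (0.047) and Tead4 (0.034) passed the threshold when Ctrl replicate 3 was left out.

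**Figure D2:**
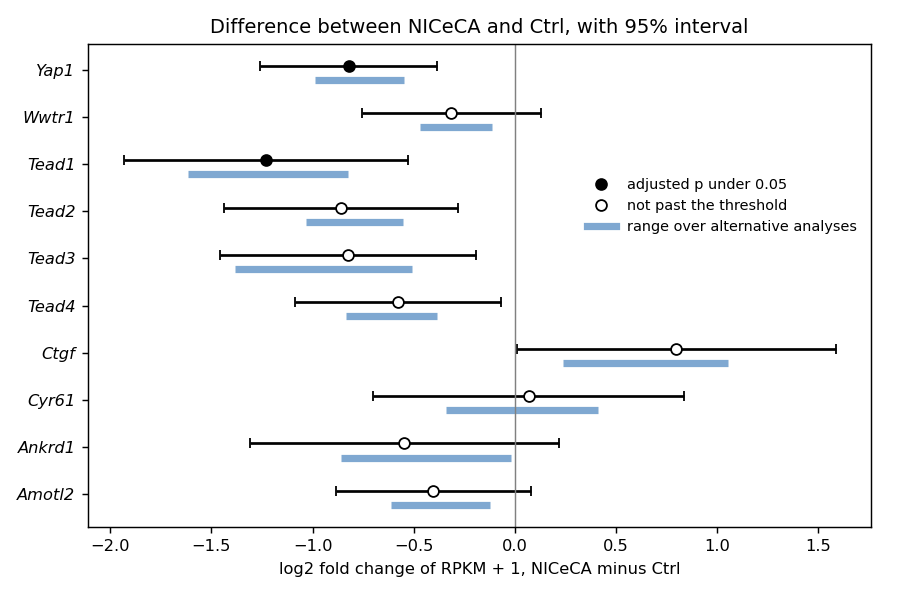
Log2 fold change of RPKM + 1 (x axis, NICeCA minus Ctrl) for each of the 10 genes (y axis), as a point with its 95% interval from limma, filled where the adjusted p was under 0.05, and a blue bar for the range over the alternative analyses. The blue bars stay below 0 for Yap1, Wwtr1, all 4 TEAD genes, Ankrd1 and Amotl2, stay above 0 for Ctgf, and cross 0 for Cyr61.

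Of the 4 target genes, 0 were called by limma, beside 13.6% of all tested genes, and 0 by limma voom on the recovered reads. An unadjusted p under 0.05 by limma was reached by 1, Ctgf, and by 35.5% of all tested genes. Ctgf, which encodes the matricellular protein CCN2, covers chr10:24595442-24598682 on the plus strand. It stood at 32.0, 12.5 and 27.0 RPKM in Ctrl, and at 30.96, 36.8 and 53.4 RPKM in NICeCA. The groups overlapped through Ctrl replicate 1, and Ctrl replicate 2 was by far the lowest library. The means were 23.8 ± 10.1 and 40.4 ± 11.6 RPKM, with a log2 fold change of 0.80 (95% interval 0.01 to 1.59, limma adjusted p = 0.14), and 0.41 without Ctrl replicate 2. The library with the most Yap1 and TEAD transcript, Ctrl replicate 2, was thus the one with the least Ctgf.

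Cyr61 encodes CCN1, a secreted relative of CCN2, on the minus strand of chromosome 3 (chr3:145646971-145649985). Its level was 38.1, 35.7 and 33.8 RPKM in the Ctrl replicates, against 23.0, 34.2 and 67.0 RPKM in the NICeCA replicates. The Ctrl libraries lay close together, and of the NICeCA libraries one lay below, one within and one far above their range. With means of 35.8 ± 2.14 and 41.4 ± 22.9 RPKM, the log2 fold change was 0.07 and its 95% interval ran from -0.70 to 0.83 (limma adjusted p = 0.90). Without NICeCA replicate 3 the sign turned, to a log2 fold change of -0.34 (limma adjusted p = 0.25).

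The Ctgf to Cyr61 ratio was 0.840, 0.351 and 0.799 in Ctrl, and 1.35, 1.08 and 0.797 in NICeCA. NICeCA replicate 3, which had the most of both transcripts, had a ratio close to those of Ctrl replicates 1 and 3.

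Ankrd1, which encodes a muscle ankyrin repeat protein and is a common YAP readout, lies on the minus strand of chromosome 19 (chr19:36111965-36119844). It was a low transcript, with 1.71, 4.48 and 3.41 RPKM in Ctrl and 1.12, 1.33 and 3.27 RPKM in NICeCA, and with 72 to 315 reads per library. NICeCA replicate 3 lay within the Ctrl range. The log2 fold change was -0.55, with a 95% interval from -1.31 to 0.22 (limma adjusted p = 0.27). Amotl2 encodes an angiomotin-like protein that binds YAP and is itself a YAP target (chr9:102717804-102733417, plus strand). Its level was 8.43, 11.6 and 8.63 RPKM in Ctrl and 5.33, 6.39 and 9.53 RPKM in NICeCA. Again NICeCA replicate 3 reached into the Ctrl range. The log2 fold change of Amotl2 was -0.40, from -0.89 to 0.08 (limma adjusted p = 0.20).

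By mean level in Ctrl the 10 genes ran from Cyr61 (35.8 RPKM), Ctgf (23.8 RPKM), Wwtr1 (17.0 RPKM), Tead2 (14.0 RPKM) and Yap1 (13.6 RPKM) through Amotl2 (9.55 RPKM) and Tead1 (6.99 RPKM) to Tead4 (3.39 RPKM), Ankrd1 (3.20 RPKM) and Tead3 (2.65 RPKM). In NICeCA, Cyr61 (41.4 RPKM), Ctgf (40.4 RPKM) and Wwtr1 (13.7 RPKM) were again the top of the order and Tead3 (0.964 RPKM) its end. In Ctrl, the gaps between Cyr61 and Ctgf, Yap1 and Amotl2, and Tead1 and Tead4 were larger than the SD of either gene, and the gaps between all other neighbors were within the larger SD of the pair. In NICeCA, Cyr61 and Ctgf did not differ beyond their spread, nor did Yap1, Amotl2 (7.09 RPKM) and Tead2 (7.07 RPKM), nor Tead1 (2.38 RPKM), Ankrd1 (1.91 RPKM) and Tead4 (1.87 RPKM).

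Across libraries, the highest value was found in Ctrl replicate 2 for 7 of the 10 genes (Yap1, Tead1, Tead2, Tead3, Tead4, Ankrd1 and Amotl2), and the lowest in NICeCA replicate 1 for 8 of the 10, all but Tead3 and Ctgf. Ctrl replicate 2 also had the lowest endothelial and the highest fibroblast marker mean. NICeCA replicate 3 had the highest Ctgf and Cyr61, and among the NICeCA libraries the highest fibroblast and mural marker means. Ctrl replicate 1 had endothelial and fibroblast means within the NICeCA range, with 11.3 RPKM of Yap1 and 4.70 RPKM of Tead1. With the fibroblast marker mean as a covariate the log2 fold change was -0.55 for Yap1 (limma adjusted p = 0.067) and -0.83 for Tead1 (limma adjusted p = 0.11), and with the endothelial marker mean it was -0.66 (limma adjusted p = 0.22) and -0.97 (limma adjusted p = 0.24).

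**Figure D3:**
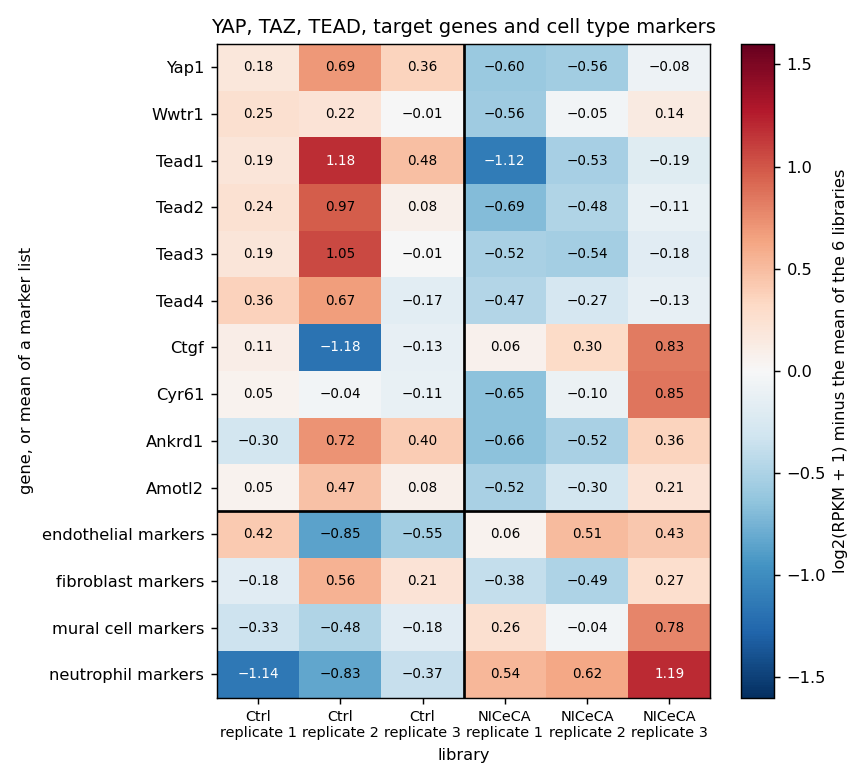
Each cell gives log2(RPKM + 1) minus its mean over the 6 libraries (color scale and printed value) for the 10 genes and for the means of 4 marker lists (rows) in each library (columns). Ctrl replicate 2 stands at 1.18 for Tead1, -1.18 for Ctgf, -0.85 for endothelial markers and 0.56 for fibroblast markers, and neutrophil markers are negative in every Ctrl library and positive in every NICeCA library.

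Upstream of YAP, the kinase core showed no call. Of its 7 genes, the kinases and adaptors Stk3, Stk4, Sav1, Lats1, Lats2, Mob1a and Mob1b, all were tested, and 3 had a higher and 4 a lower level in NICeCA. By limma 0 were called, beside 13.6% of all tested genes, and 0 had an unadjusted p under 0.05, beside 35.5%. By limma voom on the recovered reads 0 were called. Their median log2 fold change was -0.01, against -0.05 for all tested genes. The farthest from 0 were the YAP kinase gene Lats1 (8.28 ± 1.55 and 6.28 ± 0.614 RPKM, log2 fold change -0.34, limma adjusted p = 0.15), the LATS adaptor gene Mob1a (53.9 ± 10.8 and 67.4 ± 5.66 RPKM, 0.33, limma adjusted p = 0.18) and Stk4, which encodes MST1 (18.2 ± 4.94 and 21.5 ± 0.614 RPKM, 0.26, limma adjusted p = 0.36).

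Among 18 further regulators of the kinases or of YAP location, 14 had a lower and 4 a higher level, and 2 were called, both lower, beside 7.68% of all tested genes. The 2 were angiomotins, which bind YAP and hold it at junctions and the cytoskeleton. Amotl1 stood at 14.0, 18.1 and 11.4 RPKM in Ctrl and at 5.78, 6.82 and 9.55 RPKM in NICeCA, and its groups did not overlap (log2 fold change -0.89, SE 0.21, limma adjusted p = 0.038). Amot stood at 2.10, 4.81 and 4.25 RPKM in Ctrl and at 1.23, 0.984 and 1.73 RPKM in NICeCA, again without overlap (log2 fold change -0.99, SE 0.25, limma adjusted p = 0.043). Together with Amotl2, all 3 angiomotin genes had lower means in NICeCA, of which the Amotl2 difference did not pass. Frmd6, an activator of the kinases also known as Willin, had means of 11.5 ± 3.53 and 5.65 ± 2.20 RPKM and missed the threshold (log2 fold change -0.92, limma adjusted p = 0.058). The median of the 18 was -0.29 (-0.16 with the trend on gene length removed, where 10 had a lower level), and 8 of them did not overlap between groups, beside 40.9% of all tested genes. Neither angiomotin was called without Ctrl replicate 2 or without NICeCA replicate 1 or 2, Amotl1 was not called without Ctrl replicate 1 (limma adjusted p = 0.062) nor Amot without Ctrl replicate 3 (0.083), and Frmd6 was called without NICeCA replicate 3 (limma adjusted p = 0.035).

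Vestigial-like proteins compete with YAP and TAZ for TEAD. Of Vgll1 to Vgll4 only Vgll4 reached a mean of 1 RPKM, and with 21.5 ± 2.71 RPKM in Ctrl and 24.0 ± 2.34 RPKM in NICeCA it was not called (log2 fold change 0.15, limma adjusted p = 0.45). In the CCN family of Ctgf and Cyr61, Wisp1 was the only one of 4 other genes to average 1 RPKM or more, and it was not called (3.38 ± 1.22 and 2.33 ± 0.960 RPKM, log2 fold change -0.39, limma adjusted p = 0.31).

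Other genes widely used as YAP and TAZ targets went both ways. Of 23, 21 were tested, 5 were called higher and 4 lower, beside 5.88% and 7.68% of all tested genes, and the median log2 fold change was -0.02. Lats2, also in the kinase core, and Ptpn14, also among the upstream regulators, count in both lists, and neither was called. Called higher was Thbs1, which encodes the vessel growth inhibitor thrombospondin 1, with 396, 232 and 626 RPKM in Ctrl and 1432, 1198 and 1762 RPKM in NICeCA, with groups far apart (log2 fold change 1.90, SE 0.34, limma adjusted p = 0.022). Igfbp3, which encodes a binding protein of insulin-like growth factors, rose from 92.9 ± 38.7 to 309 ± 62.1 RPKM (log2 fold change 1.80, limma adjusted p = 0.021). Gadd45a, a stress and growth arrest gene, rose from 21.9 ± 1.66 to 49.2 ± 2.41 RPKM (log2 fold change 1.14, limma adjusted p = 0.0089). Angpt2, a tip cell and destabilizing ligand of the receptor TIE2, rose from 15.7 ± 5.43 to 36.1 ± 4.89 RPKM (log2 fold change 1.20, limma adjusted p = 0.032).

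Among the targets called lower was Axl, a receptor tyrosine kinase gene that macrophages and fibroblasts also express, with 37.8, 48.3 and 48.2 RPKM in Ctrl and 14.3, 14.8 and 19.2 RPKM in NICeCA. Its groups were far apart (log2 fold change -1.42, SE 0.16, limma adjusted p = 0.0097). Myof, which encodes the membrane repair protein myoferlin, fell from 31.2 ± 1.58 to 21.2 ± 1.63 RPKM (log2 fold change -0.54, limma adjusted p = 0.033). Named after their values were seen, the other called genes were Nt5e, higher, and Asap1 and Arhgef17, lower. The 9 calls became 2 without NICeCA replicate 1, 0 without NICeCA replicate 2 and 6 without Ctrl replicate 2, and 0 with the endothelial marker mean as a covariate. In the same order, the 1671 calls over all tested genes became 104, 18, 379 and 0.

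Immediate early genes, which many stimuli and tissue dissociation raise within minutes and which respond together with Ctgf and Cyr61 to serum, had positive log2 fold changes in 10 of 10 genes, Fosb at only 0.0017, with a median of 0.47. After quantile normalization 8 of the 10 were positive, with a median of 0.14, and without Ctrl replicate 2 again 8, with a median of 0.32. The 2 called, both higher, beside 5.88% of all tested genes, were the transcription factor genes Jun, with 146, 127 and 140 RPKM in Ctrl and 241, 206 and 226 RPKM in NICeCA (log2 fold change 0.70, limma adjusted p = 0.024), and Atf3, which rose from 88.3 ± 10.4 to 143 ± 10.7 RPKM (log2 fold change 0.70, limma adjusted p = 0.028). Egr1 had means of 12.05 ± 5.005 and 22.3 ± 5.32 RPKM and missed the threshold (log2 fold change 0.88, limma adjusted p = 0.076). Neither Jun nor Atf3 was called without Ctrl replicate 2, NICeCA replicate 1 or NICeCA replicate 2, and Egr1 was called without Ctrl replicate 3 (limma adjusted p = 0.034). The part of the dissociation step in these values, and in Ctgf and Cyr61, was not tested.

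**Figure D4:**
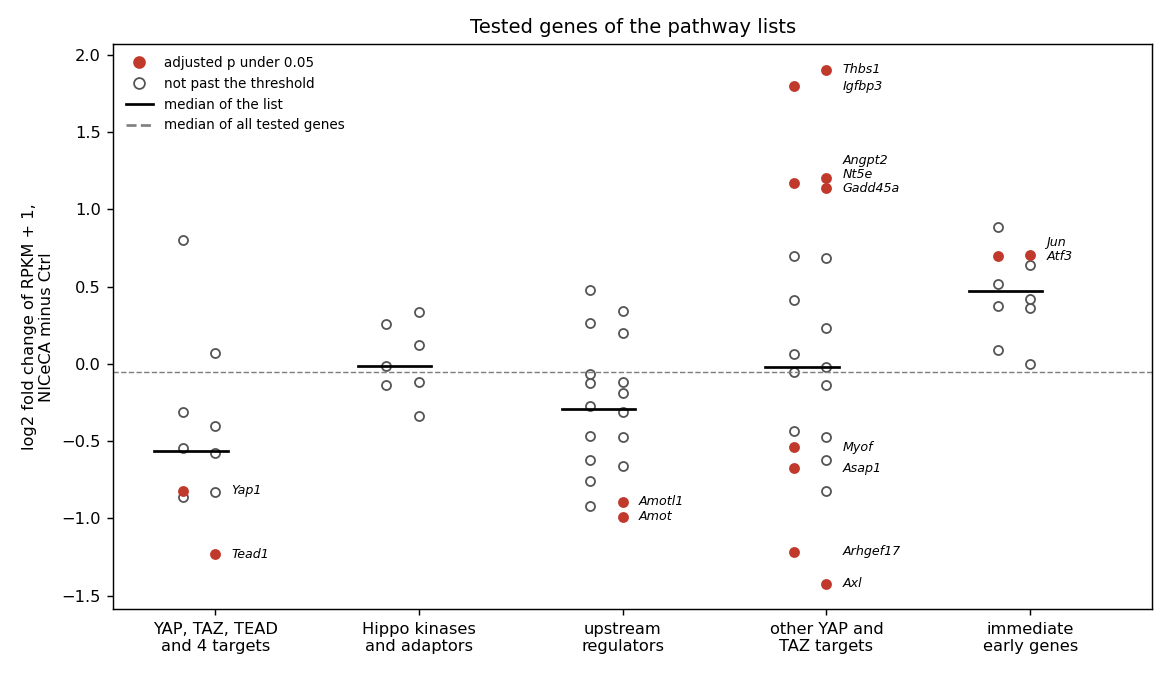
Log2 fold change of RPKM + 1 (y axis, NICeCA minus Ctrl) of every tested gene in 5 lists (x axis), in red and with a name where the adjusted p by limma was under 0.05, with black lines for list medians and a dashed line for the median of all tested genes. The median lies at -0.56 for the 10 genes, -0.01 for the kinase core, -0.29 for the upstream regulators, -0.02 for the other targets and 0.47 for the immediate early genes.

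Transcript models of the FANTOM3 collection, deposited in the same table, overlap some of these genes and give a further look along them. Of 11 such models, 6 had every NICeCA library below every Ctrl library and 0 had every NICeCA library above, beside 24.3% and 6.57% of the 31858 FANTOM3 models with a read in any library. Within Tead1, 5 of 7 models showed that pattern. The model 9430097O21 (chr7:112903280-112904956), which lies in exons near the 3′ end of Tead1, had 6.597, 13.9 and 7.29 RPKM in Ctrl and 1.99, 3.21 and 3.75 RPKM in NICeCA. Models 6820413G24 (chr7:112795069-112798599) and C230049N15 (chr7:112809713-112812835) share no base with an annotated Tead1 exon. The first had 1.27, 2.71 and 0.806 RPKM in Ctrl and 0.116, 0.393 and 0.540 RPKM in NICeCA, and the second 0.713, 1.42 and 0.714 RPKM in Ctrl and 0.0351, 0.136 and 0.138 RPKM in NICeCA. Both were thus low, under 1 RPKM in every NICeCA library. In these 3 models, as for the whole gene, every NICeCA library lay below every Ctrl library.

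The end of model 4833407D20, on the opposite strand, overlaps 371 bases of Ctgf and stood at 5.78, 2.11 and 3.64 RPKM in Ctrl and at 4.06, 5.41 and 9.40 RPKM in NICeCA, with Ctrl replicate 2 lowest and NICeCA replicate 3 highest, as for Ctgf. Model 1700049G11, on the strand opposite to Yap1, had 4.66, 7.52 and 4.13 RPKM in Ctrl and 1.70, 1.81 and 3.77 RPKM in NICeCA. The sources used here do not state whether reads were counted by strand, and overlapping models share reads with the genes, so these values are not independent of those of Tead1, Yap1 and Ctgf.

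Over the 6 libraries, the genes whose log2(RPKM + 1) ran most like that of Yap1 were Kcnq5 (Pearson r 0.9997), Klc3 (0.9993) and 9330188P03Rik (0.9993). For Ctgf they were Sh2d3c (0.9961), Hdc (0.9883) and Ttc9 (0.9809), and for Cyr61 Fermt2 (0.9819), Snord69 (0.9544) and Ephx1 (0.9490). Each was the closest of 12320 genes over only 6 points that share libraries, group differences and depth, so these are descriptions of likeness with no test.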

How the data were processed

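Bulk RNA-seq libraries of TECs from LLC tumors (3 Ctrl, 3 NICeCA) were assigned to groups by the sample titles and genotype labels. Per the file headers, the authors deposited RPKM values for 23473 RefSeq and 33353 FANTOM3 rows, after depletion of ribosomal RNA. The submitters' processing notes name TopHat2 and mm9, but 99.2% of 23305 matched RefSeq symbols lay at their GRCm38 place, so GRCm38 coordinates are given. The counting tool and strand setting were not given in the sources used here. RPKM values under 1000 reads were whole read numbers in 100% of cases (tolerance 0.05), and depth and voom rest on these recovered reads.

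RefSeq rows with a mean of at least 1 RPKM were compared on log2(RPKM + 1) by limma (version 3.58.1, R 4.3.3, trended eBayes, two-sided, Benjamini-Hochberg), so fold changes of low genes are understated. Exact permutation tests had 20 assignments and a smallest p of 0.1. The procedure was tested on simulated data, where it recovered 44.3% of genes changed 2-fold and 92.8% of those changed 4-fold, and called 7 unchanged genes. A gene that was not called can thus still differ. Replicates of a group differed by more than sampling noise (chi-square per degree of freedom at least 51.2), so each counted once. The methods state no test for these libraries. FANTOM3 rows were used only as a description. The 27 rows whose names had become dates stayed in the test.

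The genes and the lists were chosen with earlier results of these data known, the lists from general knowledge. All 10 genes are named, and of each list the called genes (at most 6, by adjusted p), then those with the largest log2 fold change in size until 3 were named. The 3 nearest genes by Pearson r are given for Yap1, Ctgf and Cyr61. The paper speaks of pairs of mice, but the main test used no pairs. Its p-values set the group difference against the spread between libraries within groups. Same-numbered Ctrl and NICeCA libraries were compared for shared deviations, and the block is given only as an alternative. Other alternatives were leaving out each library, other scalings, filters and pseudocounts, no trend, an endothelial marker covariate and voom on the recovered reads, and, chosen after seeing the data, a fibroblast marker covariate and removal of the trend on gene length.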

Additional observations from a re-analysis of the deposited data

How the results depend on the processing

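Yap1, Wwtr1, Tead1 to Tead4, Ankrd1 and Amotl2 kept a negative and Ctgf a positive log2 fold change in every alternative in which each was tested, but the sizes moved. With the fibroblast covariate Ankrd1 went from -0.55 to -0.02, Amotl2 from -0.40 to -0.12, Tead2 from -0.86 to -0.55 and Tead3 from -0.83 to -0.52. With the endothelial covariate Ctgf went from 0.80 to 0.24 and Ankrd1 to -0.17, without NICeCA replicate 1 Wwtr1 went from -0.31 to -0.11 and Amotl2 to -0.24, and without Ctrl replicate 2 Ankrd1 went to -0.32 and Tead3 to -0.51. With the trend on length removed Tead1 went from -1.23 to -0.87 (limma adjusted p = 0.10) and Wwtr1 to -0.15. Yap1 went from -0.82 to -0.69 (limma adjusted p = 0.065), Amotl1 from -0.89 to -0.57 and Myof from -0.54 to -0.28. Tead2 stayed at -0.86 and Ctgf stood at 0.82. Cyr61 turned negative without NICeCA replicate 3 (-0.34, with a range of -0.34 to 0.41 when leaving out 1 library), with quantile normalization (-0.10) and with the endothelial covariate (-0.15), and Wisp1 turned positive with the fibroblast covariate (0.0069). Yap1 and Tead1 were called in 7 of 17 and 7 of 16 alternatives. With the replicate number as a block, 1 of the 10 genes was called (Tead1, limma adjusted p = 0.033, with Yap1 at 0.057), 0 upstream regulators, 0 immediate early genes and 536 of all genes. Same-numbered libraries deviated with correlations of 0.122, -0.34 and -0.18, and differently numbered ones with -0.32 to 0.44. With so few libraries these values cannot settle whether the numbers mark the pairs of mice. Quantile normalization called 0 of the 10 (4 at an unadjusted p under 0.05 by limma), 0 upstream regulators, 5 other targets, 0 immediate early genes and 771 of all genes. Without a filter 0 of the 10 were called (5 unadjusted), 0 upstream regulators, 2 other targets and 365 of all genes. At a mean of at least 5 RPKM, which leaves out Tead1, 1 of the 10 and 1 upstream regulator were called. The endothelial covariate called 0 in every list (2 of the 10 unadjusted) and 0 of all genes, where 2428 had an unadjusted p under 0.05. The fibroblast covariate called 0 of the 10 (3 unadjusted), 0 upstream regulators, 3 other targets, 0 immediate early genes and 247 of all genes. Removing the trend on length called 0 of the 10 (4 unadjusted), 0 upstream regulators and 796 of all genes. Of the 796, 590 were higher and 206 lower, beside 725 higher and 946 lower in the main test. Leaving out 1 library gave 0 to 2 of the 10, 0 to 4 upstream regulators, 0 to 8 other targets, 0 to 4 immediate early genes and 18 to 1655 of all genes, the lowest without NICeCA replicate 2. The cause of these shifts was not tested. A library left out leaves 2 against 3, which alone costs precision.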
